A study of Nannochloropsis gaditana with 4 samples.

Results

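Quantitative PCR of the alga *Nannochloropsis gaditana* (strain CCAP 849/5, a marine single-celled species) covered the fatty acid synthesis genes BC, MCT, KAS, KAR1, KAR2, HAD, ENR1 and ENR2. They were chosen by gene symbol and make up 8 of the 44 genes in the tables, or 8 of the 36 targets once 8 reference genes are set aside. Cells grew for 13 days in batch flasks fed CO2-enriched air, under continuous light or under flashes given at 5, 50 or 500 Hz that filled 0.05 of each cycle. Time-averaged intensity was held at 300 µmol s-1 m-2 throughout, and flashes were delivered at 6000 µmol s-1 m-2. Each condition is 1 sample of pooled RNA read in 3 numbered repeats, and the labels do not say whether a repeat was a culture or a reaction. They name no genetic change in the strain, and all 4 samples share its gas supply and mean light. The continuous-light column was identified through the deposited fold table, which names test over control. The other columns are samples 2, 3 and 4, the numbers in their headers, and no header ties one of them to a flash frequency.

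In algae and plants, fatty acids are built in the plastid by separate enzymes that act on chains carried by acyl carrier protein (ACP). Acetyl-CoA carboxylase, which needs covalently bound biotin, makes malonyl-CoA, and malonyl-CoA:ACP transacylase passes the malonyl unit to ACP. Each round of elongation then joins a malonyl unit to the chain, reduces the ketone, removes water and reduces the resulting double bond. *Nannochloropsis* is known for storing large amounts of the product as triacylglycerol.

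By name, the tables give a biotin ligase of acetyl-CoA carboxylase as BC. The symbol BC does not itself name a ligase, so that role rests on the name alone. By symbol and name, the transacylase is MCT. The condensing enzyme is KAS. Its name in the table is that of a ketoacyl-CoA synthase, the class that in plants lengthens very long chains on CoA outside the plastid, while its symbol is the one used for the plastid enzyme on ACP. Ketone reduction is represented by KAR1 and KAR2, both 3-oxoacyl-ACP reductases. The dehydratase is HAD, and the enoyl-ACP reductases, which close the cycle, are ENR1 and ENR2.

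Values below are normalized quantities, that is, each gene's linear ratio divided by the level of cyclophilin (CYP) and phosphatidic acid phosphatase (PAP1) in the same sample and repeat. The ratio of a gene is relative to its own highest reading, so levels cannot be set against those of another gene. A change is a difference of log2 means over repeats. Its error is the propagated SD, the root of the summed squared repeat SDs of both samples. The words rose and fell are kept for genes that moved 2-fold or more and by over 2 propagated SDs. Since each condition is 1 sample, conditions could not be tested against each other, no p-value is given, and the error holds the repeats only. The tables used here hold no threshold cycles, so the depth behind a reading is unknown.

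The dehydratase HAD was the member with the clearest difference between light samples. It read 0.462, 0.544 and 0.532 in the repeats of continuous light and 0.948, 1.10 and 1.07 in sample 2. Readings were 0.494, 0.461 and 0.595 in sample 3 and 0.507, 0.475 and 0.550 in sample 4. Sample 2 lay above every reading of the other 3 samples, which overlapped each other throughout. The means were 0.512 ± 0.0446 (SD, n = 3) in continuous light, 1.04 ± 0.0800 (SD, n = 3) in sample 2, 0.517 ± 0.0695 (SD, n = 3) in sample 3 and 0.510 ± 0.0375 (SD, n = 3) in sample 4. HAD rose 2.03-fold in sample 2, a log2 change of 1.02 ± 0.17. In the authors' deposited fold table, HAD in sample 2 stood at 2.05, 2.02 and 2.00 in repeats 1, 2 and 3.

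The transacylase MCT had its highest readings in the same sample. MCT read 0.514, 0.510 and 0.884 in continuous light and 1.12, 1.01 and 1.08 in sample 2. It read 0.496, 0.402 and 0.534 in sample 3 and 0.568, 0.598 and 0.700 in sample 4. All readings of sample 2 exceeded those of the other samples, while continuous light was split between a high repeat 3 and the other repeats at about 0.51. The change from continuous light to sample 2 was 0.80 ± 0.46, or 1.74-fold, and did not pass. Without repeat 3 it was 1.05 ± 0.10 and passed. The deposited normalized and fold rows of MCT hold the divisor and not the gene, so the authors' deposited table gives a geometric mean fold of 0.881 for MCT in sample 2, 1.07 in sample 3 and 1.11 in sample 4. The values recomputed from the non-normalized ratios were 1.74, 0.772 and 1.01.

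BC, a biotin ligase by its name, had its lowest mean where HAD and MCT had their highest. BC read 0.428, 0.503 and 0.590 in continuous light and 0.311, 0.404 and 0.416 in sample 2. The readings were 0.448, 0.332 and 0.543 in sample 3 and 0.531, 0.673 and 0.691 in sample 4. Its highest mean was in sample 4, whose repeats did not overlap those of sample 2. Against continuous light BC stood at −0.43 ± 0.33 in sample 2, with each repeat below the lowest control reading, and at 0.32 ± 0.31 in sample 4. Between samples 2 and 4 the difference was 0.75 ± 0.31, or 1.68-fold. That is beyond 2 propagated SDs and under 2-fold.

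KAS, the condensing enzyme by its symbol, was lowest in sample 3. It read 0.523, 0.594 and 0.889 in continuous light and 0.481, 0.607 and 0.687 in sample 2. It read 0.465, 0.411 and 0.525 in sample 3 and 0.646, 0.673 and 0.875 in sample 4. Readings of sample 4 were all above those of sample 3, and both overlapped continuous light, as did sample 2. The changes against continuous light were −0.15 ± 0.48, −0.49 ± 0.44 and 0.15 ± 0.46 in samples 2, 3 and 4.

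Among the flashing-light samples, repeats of the ketoacyl reductase KAR1 separated and those of KAR2 overlapped. The ratio of KAR1 to KAR2 stayed within its error against continuous light. KAR1 read 0.644, 0.456 and 0.975 in continuous light, a 2.14-fold spread among repeats. It read 0.898, 0.910 and 0.981 in sample 2, 0.572, 0.595 and 0.454 in sample 3 and 0.740, 0.641 and 0.681 in sample 4. The flashing-light samples did not overlap each other, with sample 2 highest and sample 3 lowest, but the control repeats reached from the level of sample 3 to that of sample 2. KAR1 therefore stood within its error against continuous light, at 0.50 ± 0.55, −0.30 ± 0.59 and 0.06 ± 0.56.

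KAR2 was level over the light samples. KAR2 read 0.672, 0.869 and 0.577 in continuous light, 0.697, 0.700 and 0.709 in sample 2, 0.701, 0.597 and 0.790 in sample 3 and 0.679, 0.673 and 0.709 in sample 4. Its sample means spanned 0.03 on the log2 scale, or 1.02-fold, the second narrowest span of the 36 targets. The repeat SD pooled over samples was 0.18. Propagated SDs against continuous light were 0.30 to 0.36, so KAR2 changes within those errors could not be told from none.

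The enoyl reductases ENR1 and ENR2 followed one another. ENR1 read 0.622, 0.439 and 0.821 in continuous light, 0.733, 0.822 and 0.830 in sample 2, 0.557, 0.543 and 0.440 in sample 3 and 0.664, 0.673 and 0.720 in sample 4. ENR2 read 0.623, 0.492 and 0.705 in continuous light, 0.820, 0.894 and 0.809 in sample 2, 0.641, 0.576 and 0.437 in sample 3 and 0.686, 0.673 and 0.764 in sample 4. For both genes the order of means was sample 2, sample 4, continuous light and sample 3, and the flashing-light samples did not overlap each other. In sample 2 the change was 0.39 ± 0.46 for ENR1 and 0.48 ± 0.27 for ENR2. ENR2 was above every control reading there and ENR1 was not.

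**Figure D1:**
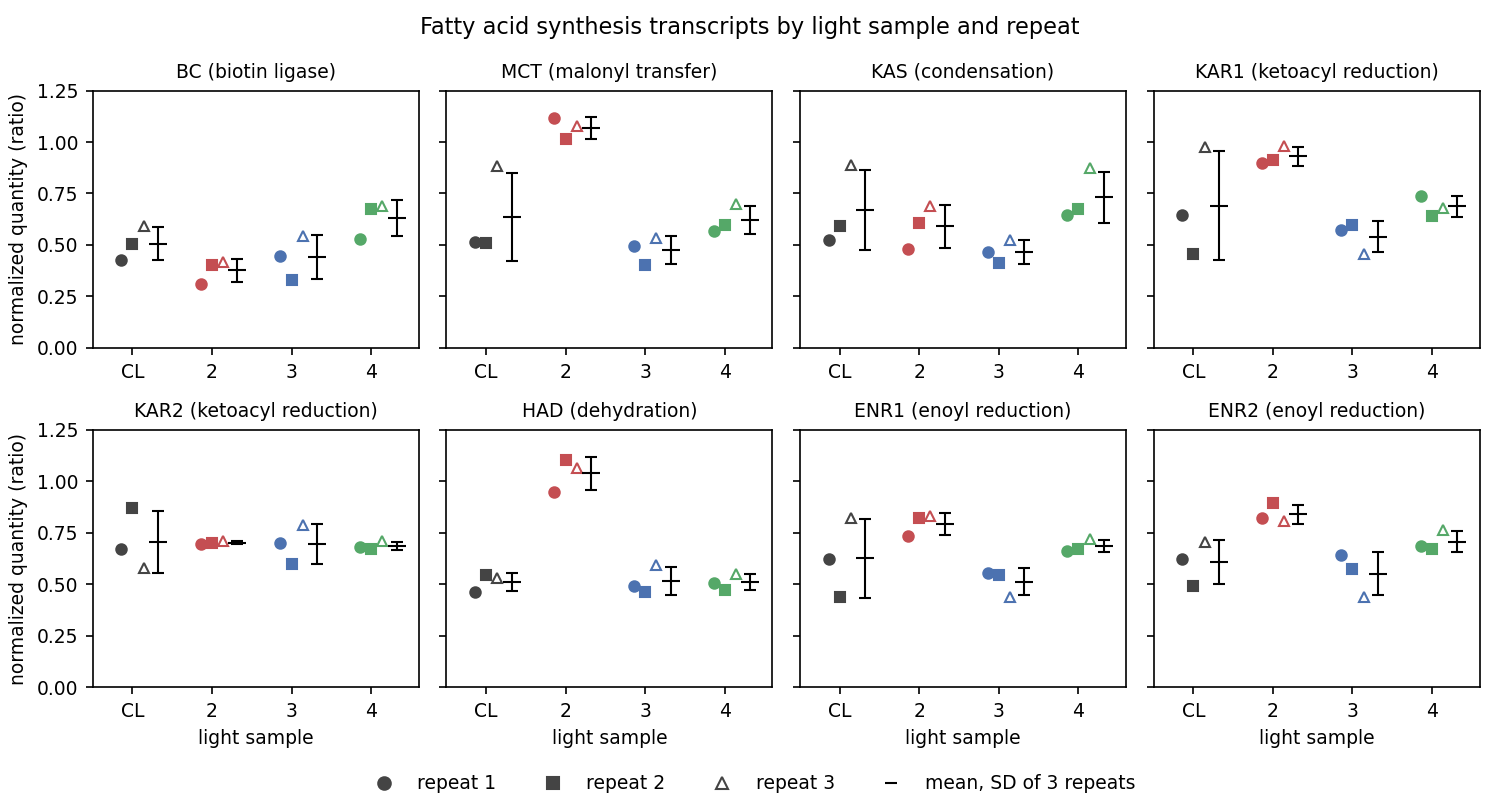
Normalized quantity (a linear ratio) of the 8 fatty acid synthesis genes in continuous light (CL) and flashing-light samples 2, 3 and 4. Symbols are the 3 repeats and the black bar is their mean ± SD. HAD and MCT in sample 2 lie above all their other readings, KAR2 is level, and BC has its lowest mean in sample 2.

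Neighbours in the order of sample means mostly lay within their error. Of the steps between adjacent means, those beyond 2 propagated SDs were from sample 2 down to the next sample, in HAD at 1.01 ± 0.22, MCT at 0.79 ± 0.17 and KAR1 at 0.44 ± 0.12. Sample 2 was the highest in 6 of 8 genes, the exceptions being BC and KAS with sample 4 on top. In KAR2 its lead over continuous light was only 0.01 ± 0.30. Most of the 28 other targets also had their highest mean in sample 2, so this is not particular to the list. Sample 3 was lowest in MCT, KAS, KAR1, ENR1 and ENR2. The ranges of sample means ran from 0.03 for KAR2 to 1.17 for MCT, with a median of 0.70 on the log2 scale against 0.56 in the 28 other targets.

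In sample 2 against continuous light, 1 of the 8 genes rose, HAD, and none fell. Of all 36 targets 13.9% passed in either direction, so a share of 1 in 8 is near the background. Beyond 2 propagated SDs regardless of fold, HAD was again the 1 member, where 38.9% of targets were. With repeat 1, 2 or 3 left out, 2, 2 and 4 members were, HAD each time. The repeats lay wholly above the control in HAD, MCT and ENR2 and wholly below in BC, a count of 4 of 8 beside 58.3% of targets. The median change of the 8 genes was 0.44, beside 0.20 over all targets, but without repeat 2 both medians were 0.21.

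In sample 3 none of the 8 passed against continuous light, beside 2.78% of targets. None was beyond 2 propagated SDs, beside 5.56%, and none had repeats clear of the control, beside 8.33%. Means were lower in 7 of 8 genes, beside 24 of the 36 targets, and 1 of the 7 was KAR2 at −0.01 ± 0.36. The median was −0.23 against −0.04 over all targets. The exception was HAD at 0.01 ± 0.23. The lowest was KAS. Without repeat 3, 5 of 8 means were lower, the medians were −0.13 and −0.12, and KAR1, ENR1 and ENR2 stood above the control at 0.11, 0.07 and 0.13.

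In sample 4 none of the 8 passed, where 0% of targets did. None was beyond 2 propagated SDs, beside 5.56%, and none had repeats clear of the control, beside 19.4%. Changes ran from −0.02 for KAR2 to 0.32 for BC, with a median of 0.11 against −0.08 over all targets. The median of the 8 was 0.03 without repeat 1 and 0.27 without repeat 3. HAD, MCT, KAR1 and KAR2 were each within 0.06 of the control on the log2 scale, with errors of 0.17 to 0.56.

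**Figure D2:**
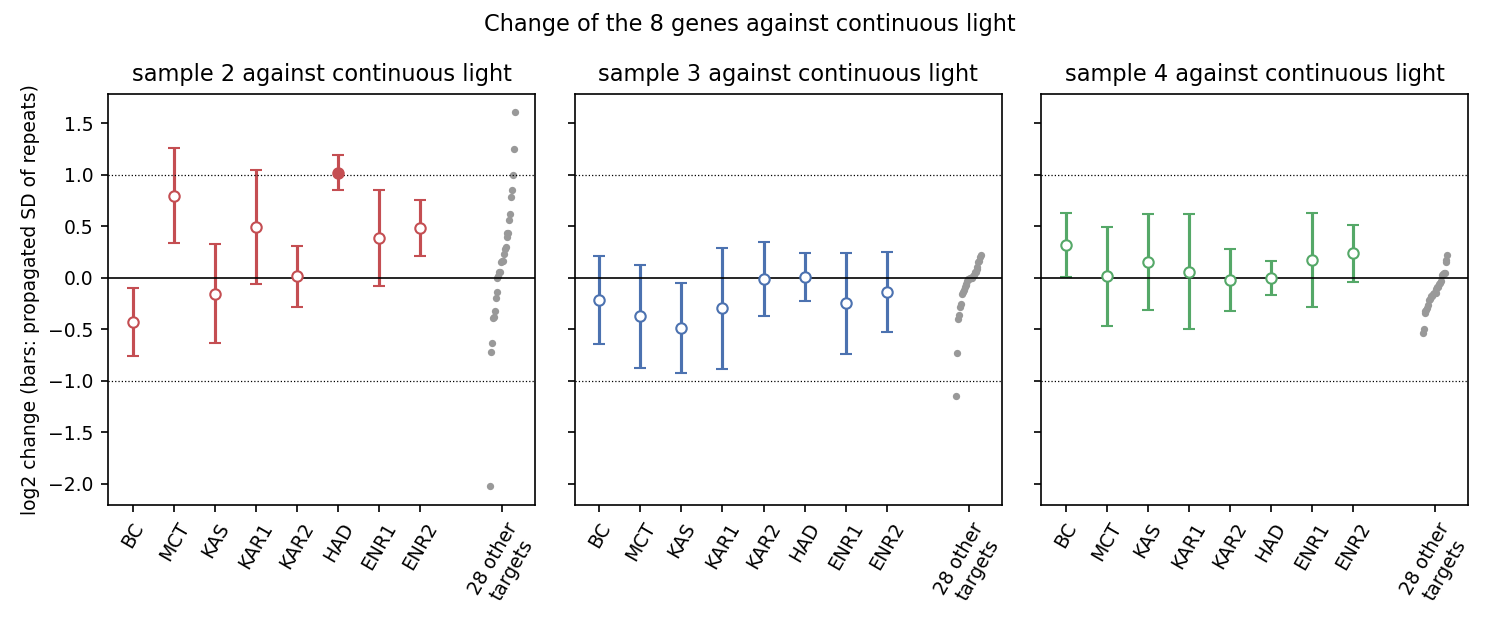
Log2 change of each of the 8 genes against continuous light in samples 2, 3 and 4, with the propagated SD of the repeats as bars. The filled point passed the rule of 2-fold and 2 propagated SDs, dotted lines mark 2-fold, and grey points are the 28 other targets. HAD in sample 2 is the 1 filled point.

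Among the flashing-light samples, more members differed by over 2 propagated SDs than against the control. Over all targets the shares were 41.7%, 55.6% and 13.9% (3 against 2, 4 against 2, 4 against 3). Against the control they were 38.9%, 5.56% and 5.56% in samples 2, 3 and 4. Errors against the control include its median repeat SD of 0.35 over the 8 genes, beside 0.09 to 0.21 in the flashing-light samples. The comparisons share samples with each other and are not independent. Going from sample 2 to sample 3, MCT fell by 1.17 (propagated SD 0.22) and HAD fell by 1.01 (propagated SD 0.22) on the log2 scale. These were 2 of 8 members beside 11.1% of targets. KAR1 at −0.79 ± 0.22, ENR1 at −0.64 ± 0.21 and ENR2 at −0.63 ± 0.30 were also beyond 2 propagated SDs, 5 of 8 in all beside 41.7%. The same 5 genes had repeats wholly below sample 2, beside 50% of targets. BC, KAS and KAR2 overlapped, at 0.21 ± 0.43, −0.33 ± 0.32 and −0.02 ± 0.20.

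In sample 4 relative to sample 2, HAD fell by 1.02 (propagated SD 0.15) and was the 1 member to pass, beside 19.4% of targets. MCT at −0.79 ± 0.17 and KAR1 at −0.44 ± 0.12 were lower beyond 2 propagated SDs and BC higher. With HAD these were 4 of 8 members beside 55.6% of targets. Repeats did not overlap in 6 of 8, beside 69.4%, the enoyl reductases adding small steps of −0.21 ± 0.12 (ENR1) and −0.25 ± 0.12 (ENR2).

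Between samples 3 and 4 no member passed, where 0% of targets did. KAS at 0.64 ± 0.30 and ENR1 at 0.42 ± 0.20 were higher in sample 4 beyond 2 propagated SDs, 2 of 8 beside 13.9% of targets, and 0 without repeat 2. Readings of sample 4 were wholly above those of sample 3 in MCT, KAS, KAR1, ENR1 and ENR2, 5 of 8 beside 41.7%. The median of the 8 was 0.38 and that of all targets −0.01. HAD was at −0.01 ± 0.22, and so was the same in samples 3 and 4 within its error while MCT was at 0.39 ± 0.26.

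The ratio of 2 members read in the same sample and repeat does not depend on the reference genes. Of the 28 pairs among the 8 genes, 6 shifted by more than 2 propagated SDs in sample 2 against continuous light, 21.4% beside 43.3% of the 630 pairs of targets. Pairs share genes and are not independent. Each of the 6 set HAD, MCT or ENR2 against BC, KAS or KAR2. BC to HAD moved by −1.45 ± 0.20, BC to MCT by −1.23 ± 0.40 and BC to ENR2 by −0.91 ± 0.36. KAS to HAD moved by −1.17 ± 0.38, MCT to KAS by 0.95 ± 0.33 and KAR2 to HAD by −1.01 ± 0.31. In each of them the dehydratase, the transacylase or ENR2 gained on its partner in sample 2 relative to continuous light. No pair shifted in sample 3, beside 5.24% of target pairs, or in sample 4, beside 2.22%.

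Paired genes for the same step gave ratios within their error against continuous light. ENR1 to ENR2 changed by −0.10 ± 0.22 in sample 2, −0.11 ± 0.22 in sample 3 and −0.06 ± 0.20 in sample 4 against continuous light. Over the 4 samples its mean moved by 0.11. KAR1 to KAR2 stood at 0.48 ± 0.85, −0.29 ± 0.93 and 0.08 ± 0.85 against the control. In sample 4 that ratio was lower than in sample 2 by 0.41 on the log2 scale, with a propagated SD of 0.12, and its repeats did not overlap. Relative to the median of the 8 genes, BC stood at −0.86 ± 0.28 in sample 2 against continuous light and at 1.02 ± 0.24 in sample 4 against sample 2. HAD relative to that median was −0.75 ± 0.09 in sample 4 against sample 2. In sample 3 against sample 2, KAR2 stood at 0.63 ± 0.18 and MCT at −0.52 ± 0.22 relative to it.

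Repeats of continuous light spread more widely at the median of these genes than at that of the other targets. The median repeat SD (log2) was 0.35 over the 8 genes and 0.18 over the 28 others in continuous light, 0.09 and 0.11 in sample 2, 0.21 and 0.23 in sample 3 and 0.10 and 0.15 in sample 4. The wide control spread was neither in every member nor particular to the list. HAD had 0.13 in continuous light. Outside the list, the propagated SDs of the acyl-CoA synthetase LCS1 were 0.75 to 0.77 against continuous light and 0.37 to 0.41 among flashing-light samples. Those of the desaturase O6FADes1 were 0.49 to 0.51 and 0.25 to 0.29. In continuous light, repeat 3 was the highest and repeat 2 the lowest in KAR1, ENR1 and ENR2, and repeat 3 was the highest in BC, MCT and KAS. KAR2 went the other way, highest in repeat 2 and lowest in repeat 3. Centred on each gene's own mean, the members had a median of 0.34 in repeat 3 and −0.27 in repeat 2 of continuous light, where the other targets had 0.02 and 0.04. What set the control repeats apart was not tested.

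KAR1 and ENR1 moved together over repeats. Their log2 ratio had a repeat SD of 0.10 pooled over the 4 samples, the lowest of the 28 pairs of members. KAR1 alone had 0.30 and ENR1 alone 0.25. For ENR1 to ENR2 it was 0.12, where ENR2 alone had 0.20. KAR1 to KAR2, the highest of the 28 at 0.47, varied more than either gene. Other pairs also lay under their single genes, such as BC to KAS at 0.16 against 0.26 and 0.28. No such spread is given here for pairs of other targets.

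**Figure D3:**
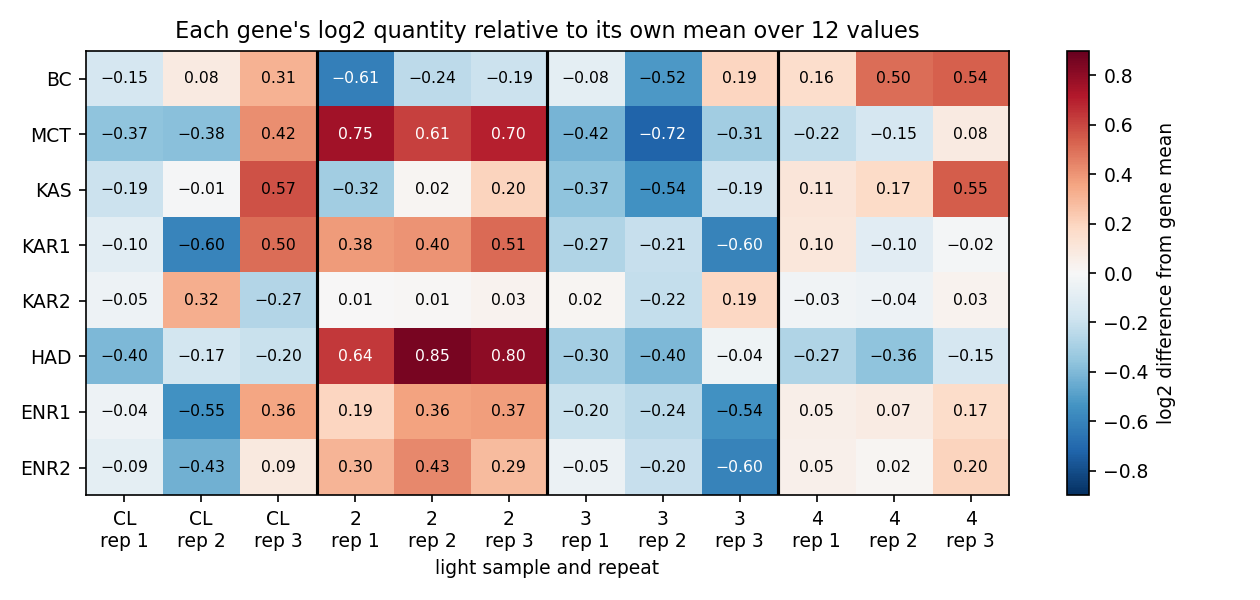
Log2 normalized quantity of each gene minus its own mean over the 12 readings, by light sample (CL, 2, 3, 4) and repeat, red for higher and blue for lower. KAR1, ENR1 and ENR2 share their low repeat 2 and higher repeat 3 of continuous light and their low repeat 3 of sample 3, while HAD and MCT are high in each repeat of sample 2.

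The spread of sample 4 rested on the normalization. Before it, 5 of the 8 genes had their highest ratio in repeat 2 of sample 4, as did 25 of all 44 genes, and the divisor was 1.49 there and 0.757 in repeat 3. The ratio of ENR1 in sample 4 spanned 1.83-fold before normalization and 1.08-fold after. BC, KAS, KAR2, ENR1 and ENR2 share the reading 0.673 in that repeat because each was at its own maximum there.

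The size of each change against continuous light moved with the reference. HAD in sample 2 stayed above the control under all 11 other choices of reference, which included none and the median target, from 0.42 with the ubiquitin family gene UFP alone to 2.63 with beta tubulin BT alone. It passed in 14 of 19 alternative calculations. It came just under 2-fold with actin ACT at 0.99 or with an amplification base of 2 at 0.99, and stood at 0.81 ± 0.09 after centring on the median target. MCT in sample 2 passed in 7 of 19 and ranged from −0.18, which is the divisor deposited in its place, to 2.40 with BT. The list median in sample 2 was above 0 with 10 of the 11 and at −0.16 with UFP. In sample 3 it was below 0 with 6 and above with 5, and in sample 4 above 0 with 10 and at −0.17 with BT. In sample 3 against sample 2 it was below 0 with all 11, from −0.93 with BT to −0.07 with UFP. In sample 4 against sample 2 it was below 0 with 8 of the 11, at −2.11 with BT and 0.58 with UFP.

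**Figure D4:**
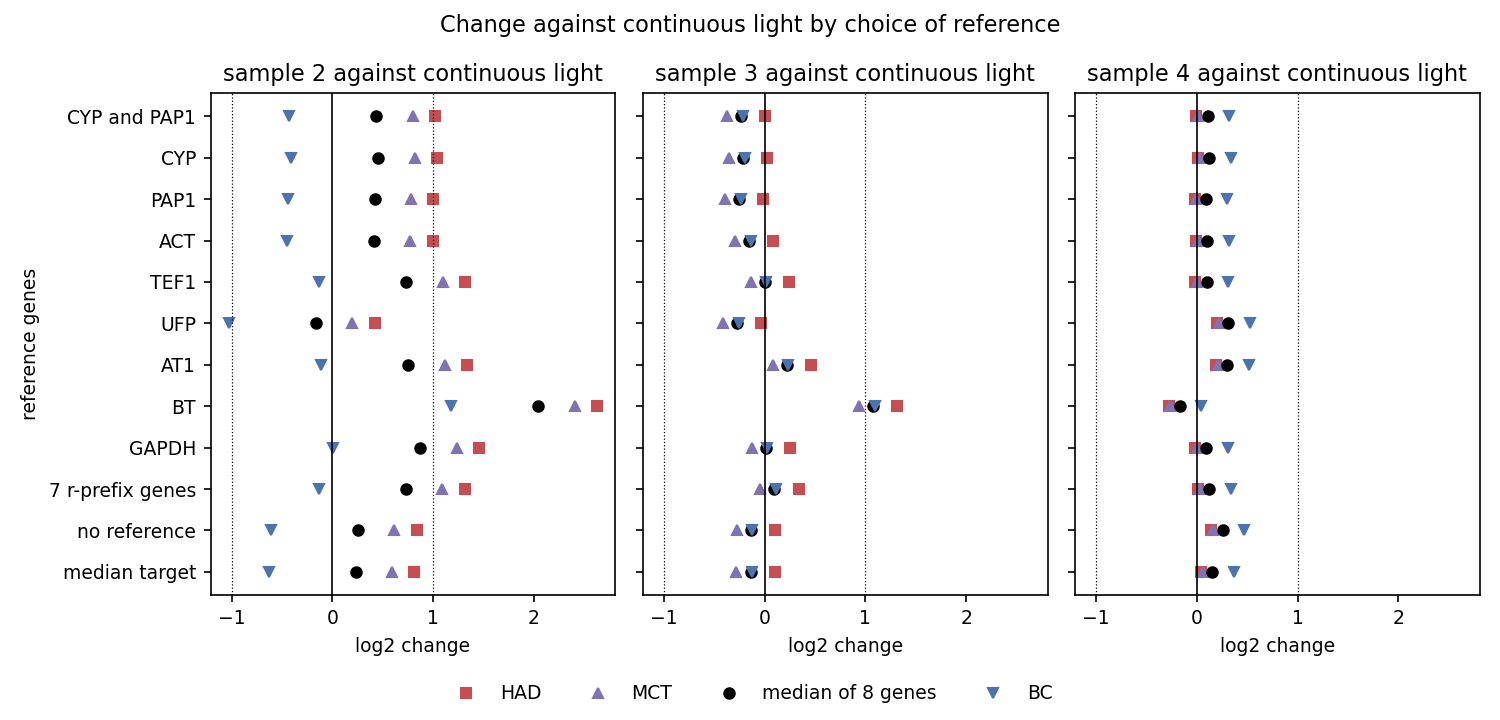
Log2 change against continuous light of HAD, MCT, BC and the median of the 8 genes for each choice of reference (rows), in samples 2, 3 and 4. Dotted lines mark 2-fold. A reference shifts all genes of a sample alike, so HAD keeps its distance from BC while the list median in sample 2 lies between −0.16 (UFP) and 2.04 (BT).

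Outside the list, the targets whose means over the 4 samples were most like the median member were the omega-6 desaturase O6FADes1 and the long-chain acyl-CoA synthetases LCS2 and LCS1. Their root mean square distances were 0.11, 0.11 and 0.12 on the log2 scale. Among all targets the nearest to HAD was the violaxanthin de-epoxidase VDE2 at 0.11, and the nearest to BC was AGPase1, of ADP-glucose synthesis, at 0.11. KAS was nearest to D6S, listed as a delta-6 saturase, at 0.11, and the level KAR2 to glycerol-3-phosphate dehydrogenase GPD3 at 0.02. MCT was nearest to KAR1 at 0.15, KAR1 to ENR1 at 0.08, and ENR1 and ENR2 to each other at 0.04. These likenesses rest on 4 sample means per gene, which share the normalization.

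Genes that act on fatty acids, supply glycerol-3-phosphate or assemble glycerolipids were also measured. None of the 4 desaturase and acyl-CoA synthetase genes passed against continuous light, with medians of 0.16, −0.31 and 0.10 in samples 2, 3 and 4. None of the 3 glycerol-3-phosphate dehydrogenase genes did, at medians of 0.02, 0.02 and −0.05. Of the 10 glycerolipid assembly genes (acyltransferases and phosphatidic acid phosphatases, without the reference PAP1) none passed, with medians of 0.07, −0.00 and −0.15. Over all targets 13.9%, 2.78% and 0% passed in these samples. The assembly median of sample 2 covers opposite changes. Beyond 2 propagated SDs there, 4 of the 10 were higher and 2 lower, beside 38.9% of targets in either direction. PAP2 was at 0.78 ± 0.25 and DGAT3 at −0.72 ± 0.08. Between samples 2 and 4, GPD1 and PAP2 fell with HAD, at −1.07 ± 0.17 and −1.10 ± 0.21, where 19.4% of targets passed. Outside the lipid lists, VCP1, POR1 and VDE2 fell further, at −1.95 ± 0.26, −1.50 ± 0.20 and −1.32 ± 0.17.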

How the data were processed

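Relative transcript quantities came from real-time PCR with SYBR Green on 4 samples. The authors deposited 3 tables of linear ratios: not normalized, normalized to housekeeping genes, and fold of test over control, per the file headers. No label or header used here gives the instrument, software or efficiency method. Recomputation showed that the divisor is the geometric mean of CYP and PAP1, scaled to 1 over the 12 readings, in 43 of 44 genes within 0.1%. It ran from 0.757 to 1.49. MCT was taken from the non-normalized table over this divisor. Of the fold values, 393 of 396 equalled the quotient of normalized values within the same tolerance. Amplification bases recovered from steps of 0.01 cycle lay between 1.91 (KAR2) and 2.07 (BC) in the 8 genes.

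Means and SDs were taken over 3 repeats on the log2 scale in Python 3.11.15 with numpy 2.4.6, and the rule of size was tested on simulated data. Every member is named, and other genes by likeness of their sample means. Members, lists and rules were chosen with earlier results of these data known. Alternatives were other references, base 2, other thresholds, repeats left out, repeat numbers as a block, the median or arithmetic mean of repeats and MCT as deposited. Correlations of same-numbered repeats, over targets, ran from −0.38 to 0.55, with 10 of 18 above 0.1. They do not settle whether a repeat number pairs the samples, and the propagated SDs treat repeats as unpaired. No sequence or genome position was used here, and gene identifiers are not reported here.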

Additional observations from a re-analysis of the deposited data

How the results depend on the processing

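Of 1452 recalculated values from 21 alternatives, 1221 kept within the spread of their repeats (counts: within 1.5 times). The ratios of members were recalculated under 5 of the alternatives (base 2, each repeat left out, the replicate block), and all 300 values kept within it. A block leaves a mean difference unchanged, and leaving out 1 of 3 repeats cannot move it by a whole propagated SD. Apart from base 2 that outcome was fixed in advance, for ratios and single genes alike, and shows no stability. MCT from sample 2 to sample 3 reversed to 0.28 with MCT as deposited, which is the divisor. No member passed in sample 3 or sample 4 against continuous light under any of the 21, where at most 1 of the 36 targets did. Taking differences within repeat numbers, as a replicate block would, left the counts at 1, 0, 0, 2, 1 and 0 in the 6 comparisons. With that block BC was beyond 2 SDs too in sample 2 at −0.43 and in sample 4 at 0.32 against continuous light, giving 2 and 1 members in place of 1 and 0, and in sample 4 against sample 2 there were 6 in place of 4. The cause of the shifts below was not tested, beyond what each setting fixes, and depth limits are unknown without threshold cycles.

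Members passing in sample 2 against continuous light numbered 1, but 0 with ACT, UFP, no reference, centring, base 2 or a 3-fold threshold, 2 with TEF1, AT1, GAPDH, the 7 genes with the r prefix or the median of repeats, 7 with BT, and 1 to 2 with a repeat left out (2 without repeat 3). Of the 36 targets, 5 passed in the main calculation, 2 to 4 where no member did and 6 to 9 where 2 members did. With BT 27 of the 36 targets passed, so the 7 members there are near the share of all targets. Between samples 2 and 3 the 2 became 1 with ACT, AT1, the 7 genes, base 2 or MCT as deposited, 0 with UFP, BT, no reference, centring or 3-fold, 5 at 1.5-fold, and 1 to 2 with a repeat left out (HAD at −0.89 without repeat 2). The targets passing there were 4 of 36 in the main calculation, 3 to 4 where 1 member passed and 1 to 2 where none did. They were 11 at 1.5-fold and 3 to 5 with a repeat left out. Between samples 2 and 4 the 1 became 2 with TEF1, GAPDH or the 7 genes, 2 higher with UFP (BC and KAS), 7 with BT, 0 with centring, base 2 or 3-fold, 3 at 1.5-fold, and 0 to 1 with a repeat left out (HAD at −0.93 without repeat 2). With no reference the count there was again 1, but the gene was BC, higher at 1.08, and HAD stood at −0.69. In that comparison 7 of the 36 targets passed in the main calculation and 3 with no reference. Targets numbered 9 to 11 with TEF1, GAPDH or the 7 genes, 8 with UFP and 31 with BT. Centring, base 2 and 3-fold gave 1 to 6 targets, 1.5-fold gave 14, and a repeat left out gave 5 to 6. From sample 3 to 4 the 0 became 1 at 1.5-fold, where 1 of the 36 targets passed.

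List medians that moved were, in sample 2, −0.16 (UFP), 0.75 (AT1), 2.04 (BT) and 0.87 (GAPDH), and in sample 3, 0.22 (AT1), 1.08 (BT) and 0.094 (7 genes). From sample 2 to 3 they were −0.53 (ACT), −0.072 (UFP), −0.50 (AT1), −0.93 (BT), −0.82 (GAPDH), −0.35 (no reference), −0.33 (centring), −0.48 (MCT as deposited) and −0.76 to −0.50 with a repeat left out. From sample 2 to 4 they were −0.54 (TEF1), 0.58 (UFP), −0.36 (AT1), −2.11 (BT), −0.68 (GAPDH), −0.51 (7 genes), 0.10 (no reference), 0.020 (centring) and −0.12 (MCT as deposited). From sample 3 to 4 they were 0.30 (ACT), 0.14 (TEF1), 0.63 (UFP), 0.12 (AT1), −1.21 (BT), 0.12 (GAPDH), 0.069 (7 genes), 0.26 (median of repeats) and 0.26 to 0.50 with a repeat left out.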
